A study of Mus musculus with 2 samples.

Results

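Myoglobin and iron handling were described in mouse calf muscle through 8 genes chosen by name: Mb, Tfrc, Fth1, Ftl1, Slc40a1, Hmox1, Hmox2 and Cp. They are 8 of the 22028 protein-coding genes, and of the 55536 annotated genes in all, in the deposited gene tables. The sequenced material was total RNA of the gastrocnemius, a large muscle of the calf, from male B6CASTF1/J mice aged 10 days, a hybrid of the C57BL/6J and CAST/EiJ strains. There was 1 group of 2 libraries, biological replicate 2 and biological replicate 1, each made from 300 ng of RNA with ERCC spike-in RNAs added, and no treatment, mutation or second tissue was labelled. Per the labels, the mice carry different animal numbers but 1 donor code, so how far the libraries are independent is not known. Without a second condition no test of an effect was possible, and the smallest two-sided p of an exact sign-flip test on 2 libraries is 0.5.

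Oxygen and iron are handled together in muscle. Myoglobin is the haem protein that binds oxygen inside muscle fibres and is most abundant in slow oxidative fibres. Iron enters cells as transferrin bound by the transferrin receptor, is stored inside shells built of ferritin heavy and light chains, and leaves through ferroportin, after which ceruloplasmin oxidises it. Haem oxygenases open the haem ring and release its iron. When a cell is short of iron, iron regulatory proteins bind hairpins called iron-responsive elements: at the 5′ end of an mRNA they hold back its translation, and in the 3′ end of the transferrin receptor mRNA they protect the mRNA from decay.

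Levels are given as TPM, a length-scaled relative abundance taken from the deposited gene tables, so that genes can be compared with each other. They are followed by the mean ± SD over the 2 libraries (n = 2). The gene tables hold 38160786 expected counts in replicate 2 and 38874862 in replicate 1, and 3 counts on a gene of 1 kb effective length are worth 0.0924 TPM in replicate 2, against 0.0925 TPM in replicate 1. The tissue matched its label as skeletal muscle, with all 6 skeletal myofibre markers detected. They summed to 76941 TPM in replicate 2, against 74809 TPM in replicate 1. Which muscle it was, and the sex on the label, were not checked. Of the 8 marker lists, 3 had a median log2 ratio of replicate 2 over replicate 1 above 0.32, each with the larger summed level in replicate 2: slow oxidative fibre (1485 TPM in replicate 2, 1079 TPM in replicate 1), erythroid (2083 TPM in replicate 2, 1139 TPM in replicate 1) and liver (10.97 TPM in replicate 2, 1.13 TPM in replicate 1). These medians rest on the genes averaging at least 100 counts: 9 for slow oxidative fibre, 5 for erythroid and 1 for liver. In bulk tissue, more cells of a type and more RNA per cell cannot be told apart.

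Sequences that match the iron-responsive element were found in 4 of the 8 genes and are shown here because they set these 4 apart from the 4 without a match. Each is a window of 30 bases of the GENCODE M21 transcript on mm10, read 5′ to 3′ on the gene's own strand, with the loop of 6 bases in capitals. The first 3 lie in a 5′ UTR, at chr19:9982732-9982761 on the plus strand for Fth1, chr7:45459778-45459807 on the minus strand for Ftl1 and chr1:45925464-45925493 on the minus strand for Slc40a1. The other 4 lie in the 3′ UTR of Tfrc, on the plus strand of chromosome 16, in order of position at chr16:32631219-32631248, chr16:32631598-32631627, chr16:32631663-32631692 and chr16:32631710-32631739. The letters A to D mark this order only and are not established names of the elements.
Fth1: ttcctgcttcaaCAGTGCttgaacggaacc
Ftl1: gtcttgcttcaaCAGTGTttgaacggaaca
Slc40a1: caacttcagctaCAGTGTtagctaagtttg
Tfrc site A: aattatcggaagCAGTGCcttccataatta
Tfrc site B: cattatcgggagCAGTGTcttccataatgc
Tfrc site C: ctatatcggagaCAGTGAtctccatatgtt
Tfrc site D: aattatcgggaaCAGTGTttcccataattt

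The search asked for an unpaired C, any 5 bases, the loop CAGTGN and 5 bases that pair with the first 5, with G-T pairs allowed, on the sense strand of the RNA. An element with another loop could not be found this way, so the sites shown need not be all that a gene has. Of 58797 protein-coding transcripts, 565 (0.961%) held a match, as did 294 of 21901 genes (1.34%). No transcript of Mb, Hmox1, Hmox2 or Cp held one, which says only that these letters are not in their annotated transcripts. Transcripts with a match made up 97.7% of Fth1 TPM in replicate 2 and 98.5% in replicate 1. For Ftl1 they made up 97.7% in replicate 2 and 98.1% in replicate 1. For Tfrc the shares were 81.0% in replicate 2 and 82.1% in replicate 1, the rest being mostly Tfrc-202, which ends before the 3′ UTR sites. For Slc40a1 they were 80.4% in replicate 2 and 94.4% in replicate 1. A second transcript table, also deposited, gave lower shares for Ftl1, 74.75% in replicate 2 and 78.4% in replicate 1. Its shares for Fth1, Tfrc and Slc40a1 were 89.0% or more in both libraries. Most of the RNA of all 4 genes was therefore assigned to transcripts with a match in both tables.

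The 8 genes spanned a wide range of levels, with the ferritin heavy chain on top and the export oxidase ceruloplasmin at the bottom. By mean level the order was Fth1, Mb, Ftl1, Tfrc, Hmox2, Hmox1, Slc40a1 and Cp. Of the 7 pairs of neighbours in that order, Ftl1 and Tfrc were the 1 pair whose values overlapped between the libraries. All 8 genes exceeded 1 TPM in both libraries, as did 51.4% of protein-coding genes.

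**Figure D1:**
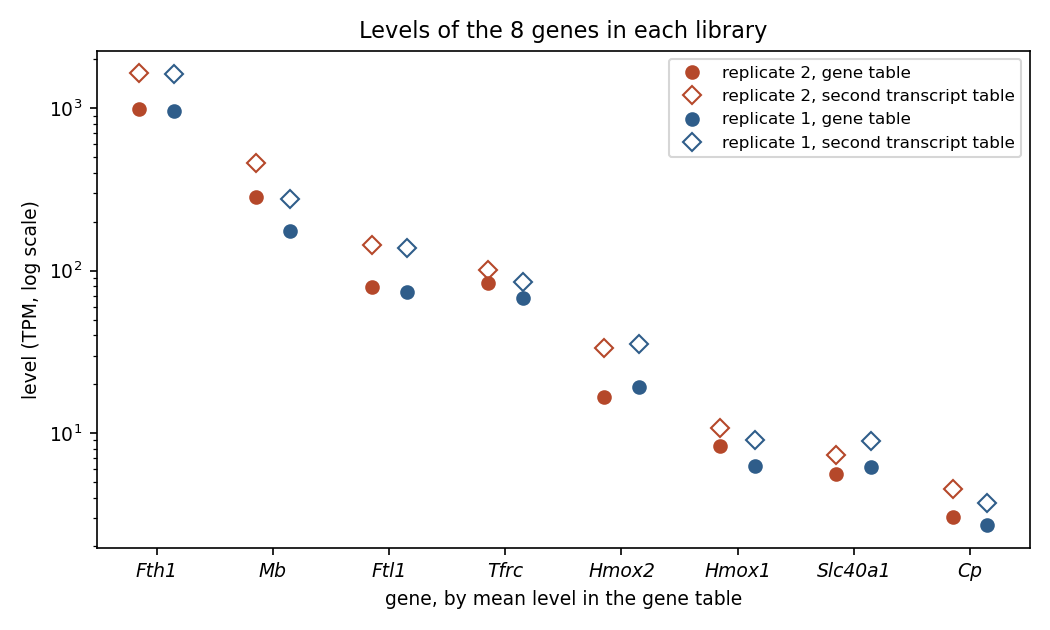
Level of each of the 8 genes (TPM, log scale) in replicate 2 (left of each pair) and replicate 1 (right), from the gene tables (filled circles) and from the second transcript tables (open diamonds). Fth1 lies between 967 and 1643 TPM and Cp between 2.70 and 4.50 TPM, and every open diamond lies above its circle.

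Mb, which encodes myoglobin, lies on chromosome 15 (chr15:77015487-77050670, minus strand). It had 284 TPM in replicate 2, against 177 TPM in replicate 1 (230.4 ± 76.0 TPM), from 7450 expected counts in replicate 2 and 4780 in replicate 1. Replicate 2 was the higher library, and Mb had the widest gap between the libraries of the 8 genes. Its mean level ranked 246 of 22028 protein-coding genes. Mb RNA was 12.4-fold as abundant as Hmox2 RNA (log2 ratio 3.64 ± 0.62, n = 2), with 16.9-fold in replicate 2 and 9.17-fold in replicate 1. Cytoglobin (Cygb), another globin made outside red cells, had 10.2 TPM in replicate 2, against 11.3 TPM in replicate 1. The log2 ratio of Cygb, replicate 2 over replicate 1, was -0.07. Its 95% interval for counting error (-0.22 to 0.07) includes equality.

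The transcripts of Mb differ in where they start. Mb-203 and Mb-201 start close to the gene's body, at positions 77022787 and 77022727, whereas Mb-202 and Mb-205 start far upstream, at 77050670 and 77050569. These 4 share a coding sequence of 462 bases. Mb-206 starts at 77021963 and has a coding sequence of 297 bases. In the first transcript table the upstream start took 27.9% of Mb TPM in replicate 2 and 35.1% in replicate 1. The start near the gene body took 30.5% in replicate 2 and 31.9% in replicate 1, and Mb-206 took 41.6% in replicate 2 and 33.1% in replicate 1. The second transcript table gave Mb-206 under 1% (0.919% in replicate 2, 0.072% in replicate 1). There the upstream start took 48.2% in replicate 2 and 40.2% in replicate 1, and the start near the gene body took 50.9% in replicate 2 and 59.8% in replicate 1. Both tables assigned RNA to both starts, but which transcript leads, and in which library the upstream start had the larger share, differed between them.

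Tfrc encodes the transferrin receptor, which takes up transferrin-bound iron (chr16:32608920-32632794, plus strand). It had 84.3 TPM in replicate 2, against 68.2 TPM in replicate 1 (76.2 ± 11.4 TPM), with 11373 expected counts in replicate 2 and 9224 in replicate 1. Replicate 2 was the higher library. Tfrc-201, the transcript that carries all 4 matches shown above, took 80.9% of Tfrc TPM in replicate 2 and 82.0% in replicate 1, and 95.8% in replicate 2 and 92.97% in replicate 1 in the second table. The ligand of the receptor, transferrin (Trf), is mostly made by liver, and its RNA had 8.94 TPM in replicate 2, against 5.13 TPM in replicate 1. Other uptake genes included the scavenging receptor Lrp1 (43.5 TPM in replicate 2, 44.6 TPM in replicate 1) and the endosomal ferrireductase Steap3 (16.4 TPM in replicate 2, 17.6 TPM in replicate 1).

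Fth1 encodes the ferritin heavy chain, which oxidises iron as it enters the shell (chr19:9980598-9985098, plus strand). It had 987 TPM in replicate 2, against 967 TPM in replicate 1 (977.3 ± 14.0 TPM), so the libraries were close. At rank 46 of protein-coding genes it was the most abundant of the 8. Ftl1 encodes the ferritin light chain, which helps the iron core to form (chr7:45457944-45459884, minus strand). It had 79.9 TPM in replicate 2, against 73.8 TPM in replicate 1 (76.8 ± 4.31 TPM), again close. Heavy chain RNA was 12.7-fold as abundant as light chain RNA (log2 ratio 3.67 ± 0.06, n = 2), with 12.3-fold in replicate 2 and 13.1-fold in replicate 1.

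That ratio rests on how reads shared with copies of the light chain gene were assigned. Ftl1-ps1, a gene of 1 exon in its main transcript on chromosome 13 (chr13:74399694-74407346, plus strand) that GENCODE M21 annotates as protein-coding despite its pseudogene name, had 88.1 TPM in replicate 2, against 80.9 TPM in replicate 1, more than Ftl1 in both libraries. Ftl2-ps, a processed pseudogene on chromosome 4, had 14.7 TPM in replicate 2, against 8.88 TPM in replicate 1. In the second table it was listed at 0 in both libraries. Ftl1 thus held 43.7% of the summed light chain TPM in replicate 2 and 45.1% in replicate 1, and 34.2% in replicate 2 and 35.9% in replicate 1 in the second table. With the copies added to their parents, the ratio of heavy to light chain RNA was 5.65-fold (log2 ratio 2.50 ± 0.09), and 4.09-fold (2.03 ± 0.09) in the second table. The heavy chain showed no such split among the genes named as its copies, since Fth1 held 99.97% of the heavy chain sum in replicate 2 and 99.98% in replicate 1, and 10 of the 12 heavy chain genes and pseudogenes were listed at 0 in both libraries. These sums hold genes chosen by symbol. Of the genes outside them that share a window of 31 bases with Fth1-201 or Ftl1-201, 1 shares with Fth1 (Gm6977, 0.65 TPM in replicate 2, 0.54 TPM in replicate 1) and 27 share with Ftl1, together at 0.27 TPM in replicate 2, against 0.55 TPM in replicate 1.

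Over 910 aligned bases, Ftl1-ps1-202 was 99.6% identical to Ftl1-201, with 4 mismatches and no gap, and its match to the iron-responsive element is the same 30 bases as in Ftl1. Of the windows of 31 bases in Ftl1-201, 85.4% also occur in a transcript of another gene, and 60.4% of the windows of 100 bases. For Fth1-201 the shares were 12.9% and 0.964%, and for the transcripts used for Mb, Tfrc, Slc40a1, Hmox1, Hmox2 and Cp they were 0. The stretch of 60 coding bases below holds both coding differences between Ftl1-201 and the chromosome 13 copy, G721A and G757A, with positions counted from 1 at the 5′ end of Ftl1-201. It is shown because the coding sequences of Ftl1-201 and Ftl1-ps1-202 are identical outside these 2 bases. Ftl2-ps has the same base as Ftl1-ps1 at both, but in all it differs from Ftl1-201 at 7 of 552 aligned bases. Capitals mark the differing bases, and the stretches lie at chr7:45458143-45458202 on the minus strand, chr13:74407060-74407119 on the plus strand and chr4:125504744-125504803 on the plus strand of the mm10 reference.
Ftl1: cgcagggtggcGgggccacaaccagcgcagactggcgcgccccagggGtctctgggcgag
Ftl1-ps1: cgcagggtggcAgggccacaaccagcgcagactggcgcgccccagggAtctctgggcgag
Ftl2-ps: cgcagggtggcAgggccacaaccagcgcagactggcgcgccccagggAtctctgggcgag

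Whether the CAST/EiJ alleles of Ftl1 carry the same bases at these positions was not tested. The levels of Ftl1 and Ftl1-ps1 are uncertain one by one. Their sum with the other copies moved with the table too, at 183 TPM in replicate 2, against 164 TPM in replicate 1, in the gene tables, and 419.9 TPM in replicate 2, against 382 TPM in replicate 1, in the second tables. In the second table, 67.1% of Ftl1-ps1 TPM in replicate 2 and 67.3% in replicate 1 went to Ftl1-ps1-201, a transcript of 491 bases that was listed at 0 in the first.

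**Figure D2:**
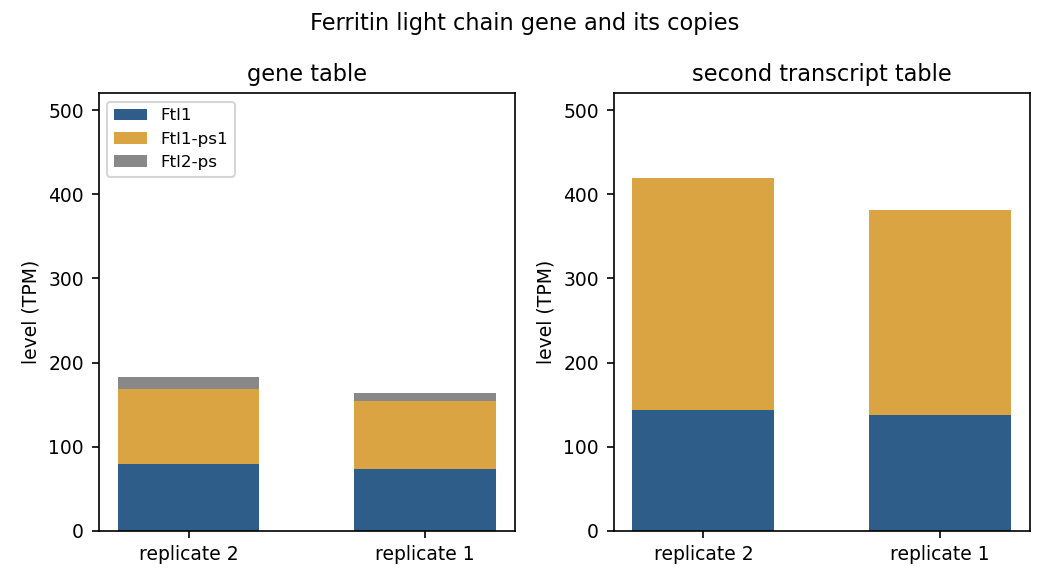
Level (TPM, bars from 0) of Ftl1 and its copies Ftl1-ps1 and Ftl2-ps, stacked, in replicate 2 (left bar) and replicate 1 (right bar) of the gene tables and of the second transcript tables. Ftl1 makes up 43.7% of the light chain sum in replicate 2 and 45.1% in replicate 1 in the gene tables, and 34.2% in replicate 2 and 35.9% in replicate 1 in the second tables. Ftl2-ps is at 0 in the second tables.

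Slc40a1 encodes ferroportin, the exporter of iron (chr1:45908068-45926523, minus strand). It had 5.62 TPM in replicate 2, against 6.15 TPM in replicate 1 (5.89 ± 0.375 TPM), with 492 expected counts in replicate 2 and 621 in replicate 1, so it was lower in replicate 2. Slc40a1-201, the coding transcript with the match, took 77.9% of Slc40a1 TPM in replicate 2 and 90.5% in replicate 1. The rest in replicate 2 was mostly Slc40a1-206, a transcript of 451 bases that took 19.6% of the TPM in replicate 2 from 12.6 expected counts and was listed at 0 in replicate 1. Cp encodes ceruloplasmin, the copper oxidase that acts with ferroportin (chr3:19957054-20009145, plus strand). It had 3.05 TPM in replicate 2, against 2.70 TPM in replicate 1 (2.88 ± 0.247 TPM), with 266 expected counts in replicate 2 and 246 in replicate 1.

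Ferroportin RNA was 2.01-fold as abundant as ceruloplasmin RNA (log2 ratio 1.01 ± 0.21, n = 2), with 1.82-fold in replicate 2 and 2.23-fold in replicate 1. Cp had the most divided transcripts of the 8 genes. Of its 16 transcripts, Cp-201 led with 27.1% of Cp TPM in replicate 2 and 33.7% in replicate 1, and protein-coding transcripts together took 77.2% in replicate 2 and 72.0% in replicate 1. Hephaestin (Heph), the membrane-bound relative of ceruloplasmin, had 1.58 TPM in both libraries.

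Hmox2 encodes the constitutive haem oxygenase (chr16:4726361-4766742, plus strand). It had 16.7 TPM in replicate 2, against 19.2 TPM in replicate 1 (17.96 ± 1.73 TPM), with 696 expected counts in replicate 2 and 791 in replicate 1, and was slightly lower in replicate 2. Hmox1 encodes the inducible haem oxygenase (chr8:75093621-75100589, plus strand). It had 8.34 TPM in replicate 2, against 6.29 TPM in replicate 1 (7.32 ± 1.45 TPM), with 398 expected counts in replicate 2 and 297 in replicate 1, and was higher in replicate 2.

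The constitutive enzyme was the more abundant of the pair in both libraries. Hmox2 RNA was 2.45-fold as abundant as Hmox1 RNA (log2 ratio 1.29 ± 0.42, n = 2), with 2.00-fold in replicate 2 and 3.02-fold in replicate 1. The second table gave 3.47-fold (log2 ratio 1.80 ± 0.23), with 3.10-fold in replicate 2 and 3.89-fold in replicate 1. Hmox1 had in effect 1 transcript, Hmox1-201, with all of its TPM in replicate 2 (100%) and 98.3% in replicate 1. Hmox2-203 led Hmox2 with 73.5% of its TPM in replicate 2 and 71.9% in replicate 1 in the first table, but the second table put Hmox2-202 first with 43.5% in replicate 2 and 43.9% in replicate 1. Hmox2-201, Hmox2-202 and Hmox2-203 all have a coding sequence of 945 bases and differ in their 5′ starts.

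**Figure D3:**
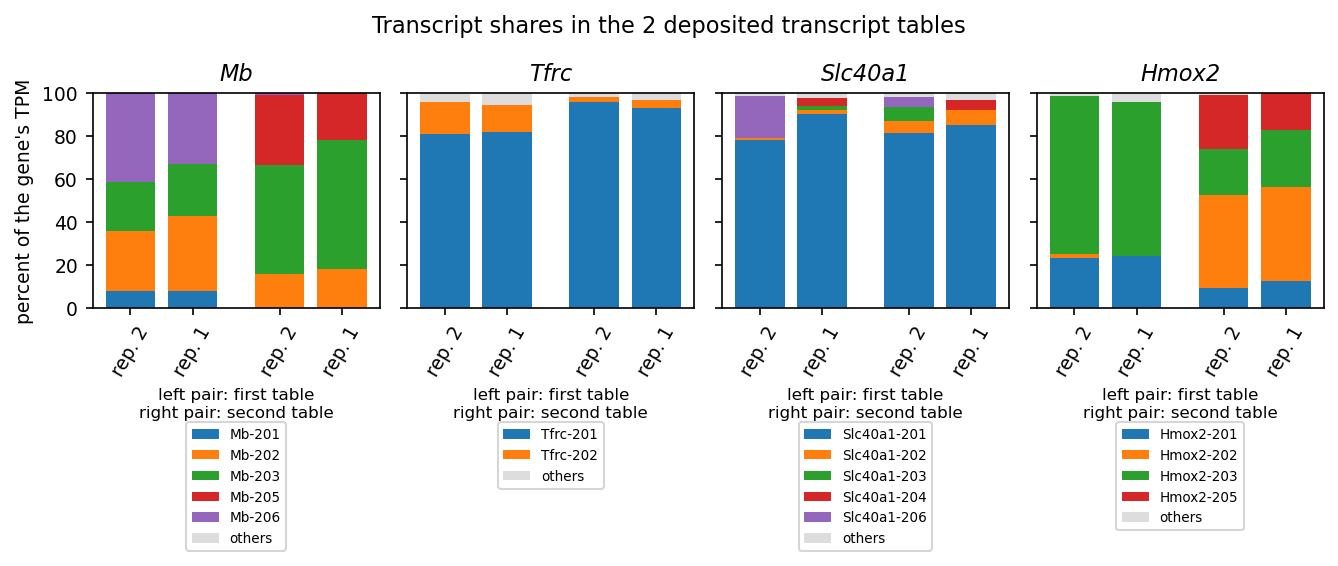
Percent of each gene's TPM assigned to its annotated transcripts for Mb, Tfrc, Slc40a1 and Hmox2, with the first transcript table on the left of each panel, the second on the right, and replicate 2 left of replicate 1 in each. Tfrc and Slc40a1 keep the same leading transcript in both tables, while Mb-206 is below 1% and Hmox2-202 leads Hmox2 in the second table.

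The spread between the libraries was described by the log2 ratio of replicate 2 over replicate 1 from expected counts after TMM scaling, with an exact binomial 95% interval that covers counting error only. With 1 library on each side this compares the libraries and carries no p-value. A gene was called past the threshold at a log2 ratio above 0.32 (25% higher in replicate 2) or below -0.32 (20% lower). Of the 8 genes, 3 were past it and higher in replicate 2, as were 5.60% of the 10967 protein-coding genes whose expected counts averaged at least 100. Of the 8, 0 were past it and lower, as were 4.08% of those genes. The 614 higher and 447 lower genes of that background became 436 higher and 627 lower when the libraries were scaled by their totals, and 479 higher and 578 lower when scaled by spike-in totals. The 3 genes past the threshold were Mb, Hmox1 and Tfrc under each of these scalings. Tfrc then lay close to the threshold, at a log2 ratio of 0.33 with library totals and 0.34 with spike-in totals.

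Mb was 1.64-fold higher in replicate 2 (log2 ratio 0.71, 95% interval 0.66 to 0.76), and 0.921% of the background genes lay at least as far from equality. Hmox1 was 1.41-fold higher (0.49, 0.27 to 0.71), with 2.92% of genes at least as far. Its interval runs below the threshold. Tfrc was 1.29-fold higher (0.37, 0.33 to 0.41), with 6.52% of genes at least as far. Past 1.5-fold, 1 of the 8 remained, Mb, against 1.12% of background genes.

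The other 5 genes were within the threshold. The ferritin chains had log2 ratios of 0.09 for Fth1 (95% interval 0.07 to 0.11) and 0.18 for Ftl1 (0.10 to 0.27). Cp had 0.18 (-0.07 to 0.44) and Hmox2 had -0.11 (-0.26 to 0.03), both with intervals that include equality. Slc40a1, at -0.27 (-0.44 to -0.09), had the lowest ratio of the 8, with 14.7% of background genes at least as far from equality. An interval that leaves out equality was not unusual: that of Fth1 did so too, with 57.5% of genes at least as far. The importer Tfrc and the exporter Slc40a1 lay on opposite sides of equality, but Slc40a1 was within the threshold. Whether their ratios are linked was not tested.

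**Figure D4:**
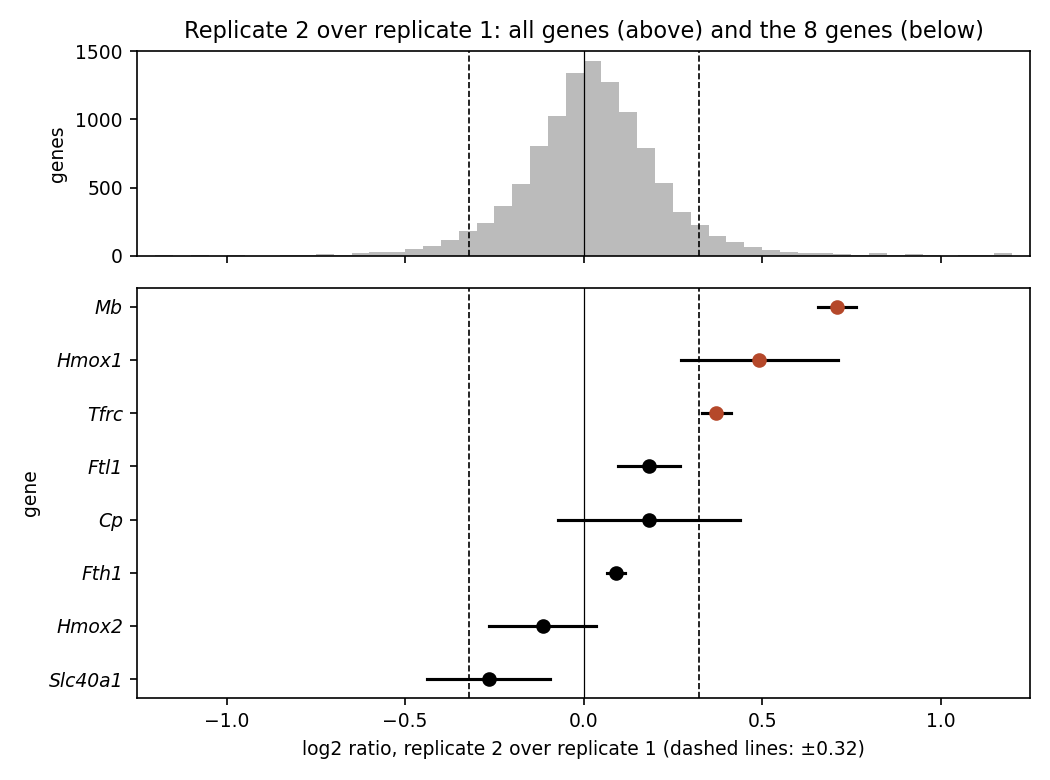
Log2 ratio of replicate 2 over replicate 1: a histogram of 10967 protein-coding genes (above, values beyond the axis left in the end bins) and the 8 genes as points with exact binomial 95% intervals (below), with dashed lines at the threshold of 0.32 either way. Mb (0.71), Hmox1 (0.49) and Tfrc (0.37), in red, lie right of the upper line, and Slc40a1 (-0.27) lies lowest.

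Markers of slow fibres and of red cells lay on the same side as Mb. Of 9 slow oxidative fibre markers, 8 were past the threshold and higher in replicate 2 (7 when scaled by library totals) and 0 were lower, with a median log2 ratio of 0.59 (range 0.10 to 0.70), where the median over all 10967 genes was 0.02. Among them were ventricular and slow myosin light chain Myl2 (322 TPM in replicate 2, 224 TPM in replicate 1), slow myosin heavy chain Myh7 (230.4 TPM in replicate 2, 167 TPM in replicate 1) and slow troponin C, Tnnc1 (130 TPM in replicate 2, 83.7 TPM in replicate 1; log2 ratio 0.70). Of 9 erythroid markers 5 reached a mean count of 100, and all 5 were past the threshold and higher in replicate 2 (median log2 ratio 0.92), led by the globins Hba-a1 (719 TPM in replicate 2, 412 TPM in replicate 1) and Hbb-bs (708 TPM in replicate 2, 394 TPM in replicate 1). Hemgn, a nuclear gene of red cell precursors, was listed at 0 in both libraries, and Epb42, a red cell membrane protein gene, had 0.05 TPM in replicate 2, against 0.06 TPM in replicate 1. The part of either cell type in the Mb ratio was not tested.

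Of the other marker lists, all but that of liver had medians closer to equality. The median log2 ratio of general skeletal myofibre markers was 0.11, and 0 of 6 were past the threshold. Macrophages recycle haem iron and use Hmox1 and Slc40a1 to do so, and their 10 markers summed to 75.5 TPM in replicate 2, against 74.4 TPM in replicate 1. The highest were Lyz2 (17.9 TPM in replicate 2, 14.8 TPM in replicate 1), Mrc1 (12.3 TPM in replicate 2, 14.6 TPM in replicate 1) and Csf1r (12.3 TPM in replicate 2, 13.9 TPM in replicate 1), and 8 of the 10 reached 1 TPM in both libraries, while Vsig4 was listed at 0. Of the 7 with a mean count of 100, 2 were past the threshold and higher (Adgre1 and Lyz2, both at a log2 ratio of 0.34; median 0.06), but 0 were with the libraries scaled by their totals or by spike-ins. The median was 0.20 for endothelial markers (1 of 6 past the threshold and higher), -0.07 for fibroblast markers (1 of 6 past it and higher, but 0 when scaled by totals or spike-ins) and -0.11 for Schwann cell markers (0 of 5 past it). Of 6 liver markers, 0 reached 1 TPM in both libraries, but Alb, the gene of serum albumin, had 7.04 TPM in replicate 2, against 0.75 TPM in replicate 1 (log2 ratio 3.29). Apoa1 (56 counts in replicate 2, 6 in replicate 1), Ttr (31 and 4), Fgb (16 and 2) and Apoa2 (13 and 0) were also higher in replicate 2, from few counts. Serpina1a was not (0 counts in replicate 2, 0.79 in replicate 1). Liver makes ceruloplasmin and transferrin, and the part of liver RNA in the values of Cp and Trf was not tested.

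**Figure D5:**
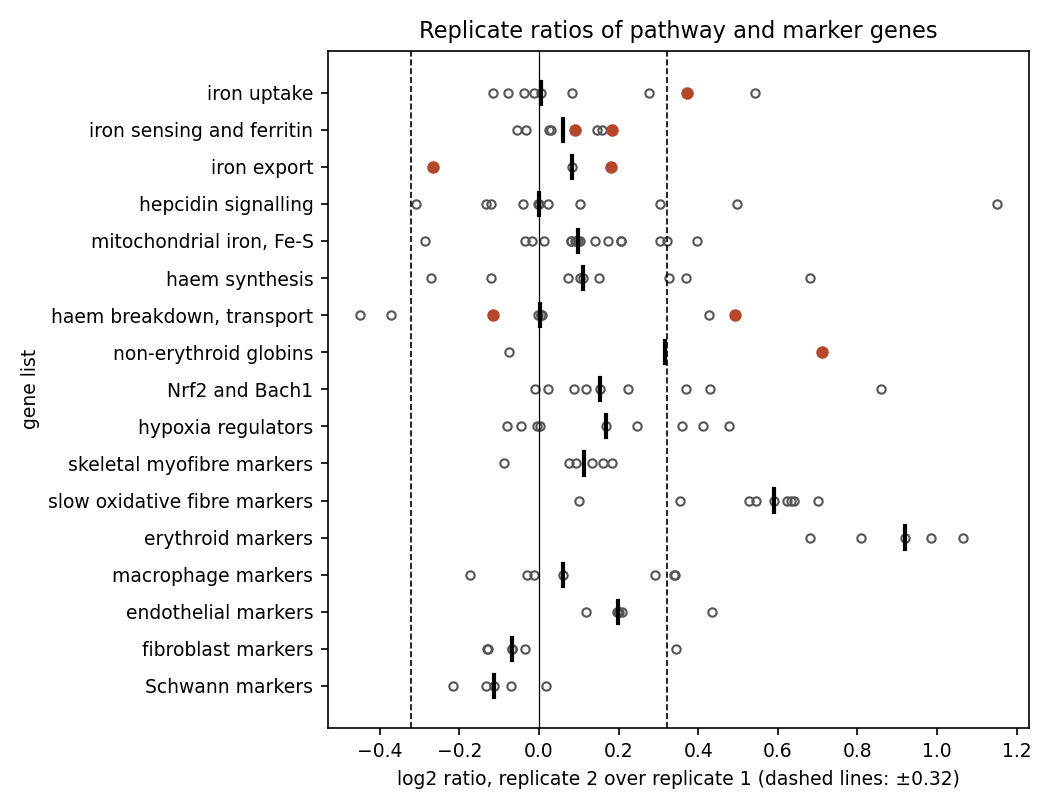
Log2 ratio of replicate 2 over replicate 1 for genes of the pathway lists and of the marker lists whose expected counts averaged at least 100. Each circle is a gene (red, the 8 genes), black bars are list medians, and dashed lines mark the threshold. The liver list, with 1 such gene, is not drawn. Slow oxidative fibre (median 0.59) and erythroid markers (0.92) lie right of the other lists.

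The pathways around the 8 genes were largely expressed in this muscle, and most of their tested genes were within the threshold between the libraries. Over all 10967 background genes, 5.60% were past it and higher in replicate 2 and 4.08% were past it and lower. Several of the lists below had a larger share of higher genes than that background. Iron sensing and ferritin turnover had 8 of 9 genes at 1 TPM or more in both libraries and 0 past the threshold in either direction (median log2 ratio 0.06). It includes the iron chaperone Pcbp2 (199.7 TPM in replicate 2, 203 TPM in replicate 1), the ferritin-degradation receptor Ncoa4 (23.7 TPM in replicate 2, 19.1 TPM in replicate 1) and the iron regulatory proteins Aco1 (9.48 TPM in replicate 2, 9.90 TPM in replicate 1) and Ireb2 (12.3 TPM in replicate 2, 13.5 TPM in replicate 1). The RNA of the proteins that read the hairpins thus stayed within the threshold between the libraries. Iron uptake had 10 of 13 genes at that level, with 2 of 9 tested past the threshold and higher (Tfrc and Trf), 0 lower and a median of 0.00. Iron export had 3 of 4 at that level and 0 of 3 past the threshold.

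Systemic iron sensing was represented in muscle by haemojuvelin (Hfe2), a bone morphogenetic protein co-receptor, with 168 TPM in replicate 2 and 177 TPM in replicate 1. Hamp, the gene of the hormone hepcidin, had 0 counts in replicate 2 and 2 counts in replicate 1. Of 11 tested genes of this list, 2 were past the threshold and higher in replicate 2 (Bmp2 and Id1) and 0 were lower, and the median was 0.00. Id1, a target of bone morphogenetic protein signals, had 15.9 TPM in replicate 2, against 7.51 TPM in replicate 1 (log2 ratio 1.15, 95% interval 0.91 to 1.40).

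All 17 genes of mitochondrial iron and iron-sulphur clusters were at 1 TPM or more in both libraries, led by the chaperone Hspa9 (119.6 TPM in replicate 2, 119.4 TPM in replicate 1). Of these, 2 were past the threshold and higher (Bola3 and Fdxr), 0 were lower, and the median was 0.10. All 9 genes of haem synthesis were also at that level, with 3 past the threshold and higher, 0 lower and a median of 0.11. The 3 were Alas1, the first enzyme of the pathway in most tissues (83.9 TPM in replicate 2, 70.4 TPM in replicate 1), Alas2, its red cell form (8.87 TPM in replicate 2, 5.42 TPM in replicate 1), and Cpox. Haem breakdown and transport had 10 of 12 genes at that level. Of its 10 tested genes, 2 were past the threshold and higher (Hmox1 and the haemoglobin scavenger Hp) and 2 were past it and lower (the haem exporter Flvcr1 and its relative Flvcr2), with a median of 0.00.

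Hmox1 is a target of the activator Nrf2 and the repressor Bach1, and the list of these factors and their partners and targets had 3 of 9 tested genes past the threshold and higher, 0 lower and a median of 0.15. The 3 were Nfe2l2, which encodes Nrf2 (14.7 TPM in replicate 2, 12.1 TPM in replicate 1), the small Maf partner Mafk (6.46 TPM in replicate 2, 3.75 TPM in replicate 1; log2 ratio 0.86) and Srxn1. Bach1 had 5.86 TPM in replicate 2, against 5.83 TPM in replicate 1. The other tested genes were within the threshold, with log2 ratios of 0.22 for Mafg, 0.15 for Gclc, 0.12 for Txnrd1, 0.09 for Bach1, 0.02 for Keap1 and -0.01 for Gclm. Nqo1, with 50 counts in replicate 2 and 68 in replicate 1, had too few to be tested (log2 ratio -0.37, 95% interval -0.93 to 0.17). The part of Nrf2 or Bach1 in the Hmox1 ratio was not tested. Of the 9 genes of the hypoxia list, not all of them regulators, 3 were past the threshold and higher, 0 lower, with a median of 0.17. The 3 were Epas1 (39.9 TPM in replicate 2, 32.7 TPM in replicate 1), Vegfa and the glucose transporter Slc2a1 (2.97 TPM in replicate 2, 2.29 TPM in replicate 1). Scaling the libraries by their totals lowered the ratios, and the median over all genes was then -0.02. Under it Bola3, Alas1 and Epas1 were no longer past the threshold, leaving 1 gene higher for mitochondrial iron, 2 for haem synthesis and 2 for hypoxia, while Neo1, a haemojuvelin receptor of the systemic iron list, and Slc25a28, a mitochondrial iron importer, passed it as lower. The counts of genes that were higher did not change in the other pathway lists.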

How the data were processed

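The authors deposited, per sample, a gene table and a transcript table in the column layout of RSEM, with expected counts, posterior mean estimates, TPM and, for transcripts, percent of the gene's TPM, and a second transcript table in the layout of kallisto with estimated counts and TPM. Per the file headers and deposited notes, the build is mm10 and the annotation GENCODE M21. Aligner, program versions and use of strand in counting were not given in the sources used here. Overlapping and antisense genes are uncertain for that reason. Effective lengths imply fragments of 100 bases in the gene tables, and of 355 (replicate 2) and 347 (replicate 1) bases in the second tables, which affects the TPM of short transcripts.

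Expected counts were rounded and scaled with TMM over 16214 genes averaging at least 10 counts (edgeR 4.0.16, R 4.3.3), with size factors of DESeq2 1.42.0, the libraries' totals, and spike-in totals (0.735% of counts in replicate 2, 0.741% in replicate 1) as alternatives. Ratios used a prior count of 0.5. Level ratios are log2 of TPM plus 0.1, so folds of low genes are slightly understated. A gene was past the threshold at a log2 ratio beyond 0.32 either way, and the background was protein-coding genes whose expected counts averaged at least 100. Intervals are exact binomial (Clopper-Pearson, 95%) and hold counting error alone: without molecular identifiers, reads need not be separate molecules. The ratio and motif steps were tested on simulated data. Other steps used Python 3.11.15, pandas 2.3.3, scipy 1.17.1 and Biopython 1.88.

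The 8 genes, the 18 gene lists and their tests were chosen with earlier results of these data known. Named are the 8 genes, of each list the 3 highest by mean TPM and, in lists with 4 or more genes at a mean count of 100, the largest ratio, and the ferritin copies with most counts. Not all of these are given, and further list members are named after their values were seen. Trf was found for the symbol Tf and Erfe for Fam132b, and Hfe2 stands for haemojuvelin. Sequences come from the GENCODE M21 transcripts of the reference strain. Protein sequences were not used here.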

Additional observations from a re-analysis of the deposited data

How the results depend on the processing

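The count of 3 genes past the log2 threshold of 0.32 stayed 3 under DESeq2 size factors, totals of library or spike-in counts, and the second table, and was 1 at 1.5-fold. No ratio of replicate 2 over replicate 1 changed sign under any alternative run, and 4 of 56 moved by more than counting error, all for Tfrc or Fth1. The log2 ratio of Fth1 over Ftl1 was 3.54 in the second table, 2.50 with ferritin copies added, and 2.03 with both, an alternative added after seeing the data. That of Hmox2 over Hmox1 was 1.80 in the second table. The cause of these shifts was not tested, apart from the added copies, which enlarge the light chain sum. Other pseudocounts moved no level ratio by more than the spread between libraries. Leaving out each replicate gave 3.63 to 3.71 for Fth1 over Ftl1, 1.00 to 1.59 for Hmox2 over Hmox1, 0.86 to 1.16 for Slc40a1 over Cp, and 3.20 to 4.08 for Mb over Hmox2. All 8 levels moved in the second table and with TPM rescaled without 7SL, spike-in and mitochondrial genes, 3 with posterior means. The rescaling raised every level 1.77-fold in both libraries, for Mb from a mean of 230.4 TPM to 407 TPM. Counts of list genes past the threshold, with scalings and table added after seeing the data, moved by over 1.5 times for macrophage markers (0) and fibroblast markers (0) under totals of library or spike-in counts, and for mitochondrial iron under spike-in totals (1). Leading transcript shares moved for 5 of 8 genes in the second table. No paired analysis was possible because the 2 libraries form 1 group. Depth limits Cp and Hmox1 most.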
